A study of Mus musculus with 8 samples.

Results

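Calcium channel, calcium pump and calcium store genes were examined in bulk RNA sequencing of mouse pancreatic islets, small endocrine organs made up mostly of insulin-secreting beta cells. The genes were taken by symbol. They comprised the voltage-gated channel subunits (Cacna, Cacnb and Cacng), the ryanodine (Ryr) and inositol trisphosphate (Itpr) receptors, the calcium ATPases (Atp2a, Atp2b and Atp2c), Orai and Stim, the Trpc, Trpm and Trpv channels, and symbols beginning with Mcu. The rule returned 56 of the 15985 gene symbols measured. Of these, 54 were among the 15960 genes that passed the filter on low values, and the other 2 were not tested. The rule works on names alone, and it also takes in Trpc4ap, an adaptor protein that is not itself a channel, Mcur1, a regulator of the mitochondrial uniporter, and Mcub, a uniporter paralog.

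The islets came from 8 mice of mixed strain aged 13 to 16 months, with 1 library per mouse. The 4 libraries labelled knockout were Ins-Cre;Sox9fl/fl, a genotype in which Cre recombinase driven by the insulin promoter deletes floxed exons of Sox9 in insulin-positive cells from embryonic life onwards. Control 1 was Sox9fl/fl, control 2 Sox9fl/+, control 3 Sox9+/+ and control 4 Sox9+/fl. All 4 lacked Cre, so that the effect of Cre itself and that of Sox9 loss cannot be told apart. The comparison asks how the RNA of the calcium handling genes in aged islets differed between these genotypes.

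In a beta cell, glucose metabolism closes potassium channels and depolarises the membrane, which opens voltage-gated calcium channels. The calcium that enters triggers exocytosis of insulin granules. SERCA pumps (Atp2a genes) refill the endoplasmic reticulum, from which IP3 receptors and ryanodine receptors release calcium. When the store empties, Stim proteins in its membrane open Orai channels in the plasma membrane. PMCA pumps (Atp2b genes) expel calcium from the cell, and the mitochondrial uniporter takes it up into mitochondria.

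Estimated depth ranged from 11.0 to 26.3 M reads per library, and 1 read corresponded to a normalized value between 0.657 and 1.37. Summed beta cell markers (8 genes) made up 31.5% to 39.0% of the control libraries and 28.4% to 35.4% of the libraries labelled knockout. The RNA of Sox9 did not separate the groups: it was 23.3, 37.3, 13.4 and 13.3 normalized reads in controls 1 to 4 and 36.6, 16.4, 20.6 and 11.7 in the libraries labelled knockout (log2 difference -0.02, SE 0.44, limma adjusted p = 0.99). These libraries are therefore named by their label throughout. Control 3 stood apart in its sum of 4 Y-linked genes, 117 normalized reads against 2367 to 2712 in the other controls. The libraries labelled knockout had 2388 to 2549. By the study's methods the sequenced islets came from males, and the sex of control 3 was not tested further. Immediate early genes, which respond within minutes to stimulation or handling, did separate the groups. Their sum (15 genes) was 0.274% to 1.005% of the control libraries and 1.33% to 2.16% of those labelled knockout (exact two-sided permutation test, p = 0.0286, the smallest p that 4 against 4 libraries allow). Acinar markers (15 genes) made up 0.222% to 1.07% of the control libraries and 0.63% to 1.58% of those labelled knockout, with overlap.

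The RNA of 2 genes, both pumps of the endoplasmic reticulum, stood far above the rest. Expressed per kilobase of annotated exon, so that genes of different length can be compared, Atp2a2 averaged 5321 normalized reads per kb over the 8 libraries. Atp2a3 averaged 3230 on the same scale. The pair made up 72.6% of the summed level per kb of all 56 genes. Next in order were Trpm5 (464 per kb), the calcium-activated cation channel of taste cells and beta cells, Cacnb3 (284 per kb), an intracellular channel subunit, and Orai3 (235 per kb), a store-operated channel. Cacna1d, which encodes the pore of an L-type calcium channel, followed with 221 per kb. In the control libraries Atp2a2, Atp2a3, Trpm5 and Cacnb3 did not overlap with the next gene down, and Cacna1d lay above Cacna2d1 without overlap. For the other 50 of the 55 pairs of neighbours in the order, the control libraries overlapped, so that their order is not resolved. With the longest transcript of each gene as its length, the first 4 genes kept their places and the SERCA pair held 65.5%, but Orai3 moved from place 5 to 10, Stim1 from 9 to 5 and Stim2 from 11 to 18. Only 3 of the 56 genes lay above 90% of all genes measured by level per kb, and 25 lay above the median gene. Among the 54 tested genes the lowest levels were those of Ryr3 (0.75 per kb) and Ryr2 (0.55 per kb). Every level here is an average over all cells of an islet preparation.

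**Figure D1:**
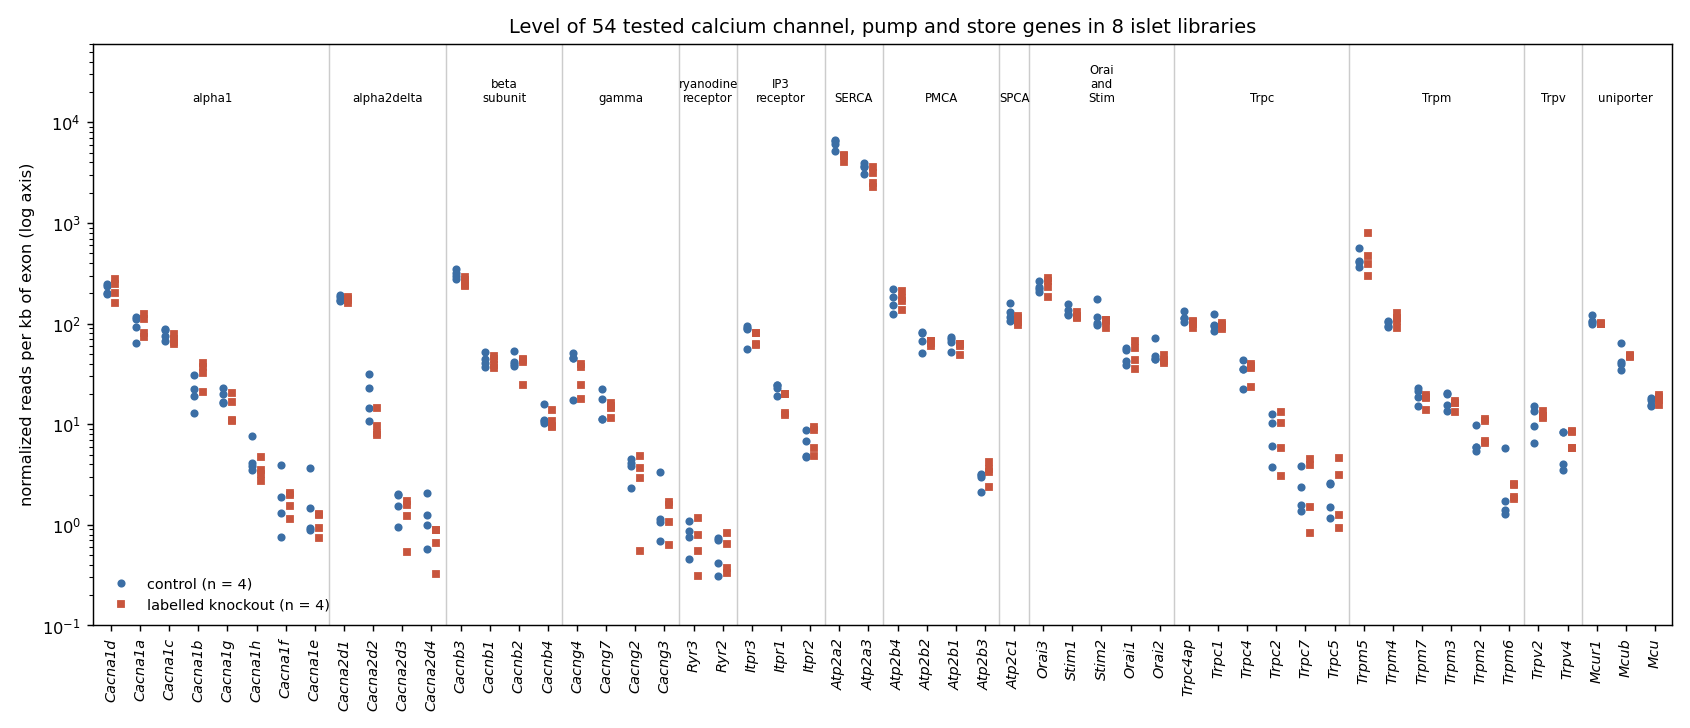
Level of the 54 tested genes in normalized reads per kb of annotated exon (log axis), grouped by role and ordered by mean level within each role. Blue circles are the 4 control libraries and red squares the 4 libraries labelled knockout; Atp2a2 and Atp2a3 stand above all other genes in all 8 libraries, whereas Ryr2 and Ryr3 lie near or below 1.

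To show what lies upstream of these genes, the 250 bases before each annotated start (RefSeq, GRCm38.p6) were searched on both strands for AACAAT, the core letters bound by the HMG box of SOX proteins. Entries were matched for 45 of the 56 genes, with 60 starts in all. The letters occurred before 9 of the 60 starts (15%), belonging to 8 genes (Atp2b2, Atp2b4, Cacna1c, Cacna1d, Cacna1i, Cacnb2, Trpc5 and Trpm6), and before 9.42% of all 32851 starts. The sequences of 2 of the more abundant genes are shown 5′ to 3′ on the strand of the gene. Cacna1d, the most abundant of the voltage-gated pore genes, has an AT-rich upstream start (chr14:30491157-30491406, minus strand). This window holds the letters, in capitals and on the opposite strand, beginning 211 bases before the start. A GC-rich downstream start of the same gene is without them (chr14:30353487-30353736, minus strand). Atp2a3, the second most abundant gene of the set, has a start without them (chr11:72960919-72961168, plus strand).
Cacna1d upstream start: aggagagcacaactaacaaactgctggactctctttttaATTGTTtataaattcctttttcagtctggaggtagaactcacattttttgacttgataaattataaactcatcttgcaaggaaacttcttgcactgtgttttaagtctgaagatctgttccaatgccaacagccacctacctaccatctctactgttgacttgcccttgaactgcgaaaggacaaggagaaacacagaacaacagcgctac
Cacna1d downstream start: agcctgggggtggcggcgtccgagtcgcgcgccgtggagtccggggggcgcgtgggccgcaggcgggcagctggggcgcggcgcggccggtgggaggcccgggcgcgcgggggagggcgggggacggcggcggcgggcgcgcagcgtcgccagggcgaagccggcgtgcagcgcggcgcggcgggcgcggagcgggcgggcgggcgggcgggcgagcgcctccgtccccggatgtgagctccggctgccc
Atp2a3: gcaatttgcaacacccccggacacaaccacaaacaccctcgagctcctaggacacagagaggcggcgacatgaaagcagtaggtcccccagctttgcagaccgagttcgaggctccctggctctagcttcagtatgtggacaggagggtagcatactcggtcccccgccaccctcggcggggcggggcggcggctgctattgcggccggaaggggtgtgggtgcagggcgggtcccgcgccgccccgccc
The GC content of these windows was 39.6%, 86.4% and 66.8%, in the order shown. These matches describe the letters of the windows, not binding.

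Across the genome, 9 of 15960 genes (0.0564%) passed an adjusted p of 0.05 between the groups (limma on log2(value + 0.5), Benjamini-Hochberg adjustment over all genes). Relative to controls, 6 were higher (0.0376%) and 3 were lower (0.0188%). By limma, 0 of the 54 calcium genes passed, and the smallest adjusted p among them was 0.20. At an unadjusted p under 0.05, 6 of 54 genes (11.1%) were counted, near the 10.7% of all genes. Of these 6, 5 were lower in the libraries labelled knockout (Atp2a2, Itpr1, Cacna2d2, Atp2a3 and Cacnb3) and 1 was higher (Cacna1b), against 6.36% and 4.34% of all genes in these directions. With the immediate early covariate 0 were lower and 2 higher, and the 1 higher gene was lost under 7 other settings. The groups did not overlap for 1 of 54 genes (1.85%), Atp2a2, against 6.35% of all genes, 3.68% lower and 2.67% higher. The log2 difference was below 0 for 36 of 54 genes (66.7%), against 55.1% of all genes. Its median was -0.10 over the 54 genes and -0.03 over all genes. With the immediate early covariate 57.4% of the 54 genes were below 0, against 54.6% of all genes, and the medians were -0.034 and -0.038. Without covariates, the 34 genes with a mean above 100 normalized reads had a median of -0.14, and 25 of them were below 0. Among the 20 lower genes the median was -0.02, and 11 were below 0. The same values over all genes at these levels were not computed, so no effect of level is read from these counts. The 95% interval lay within 0.5 of 0 on the log2 scale for 17 genes and within 1 of 0 for 38 genes, and it reached beyond 1 for the others.

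**Figure D2:**
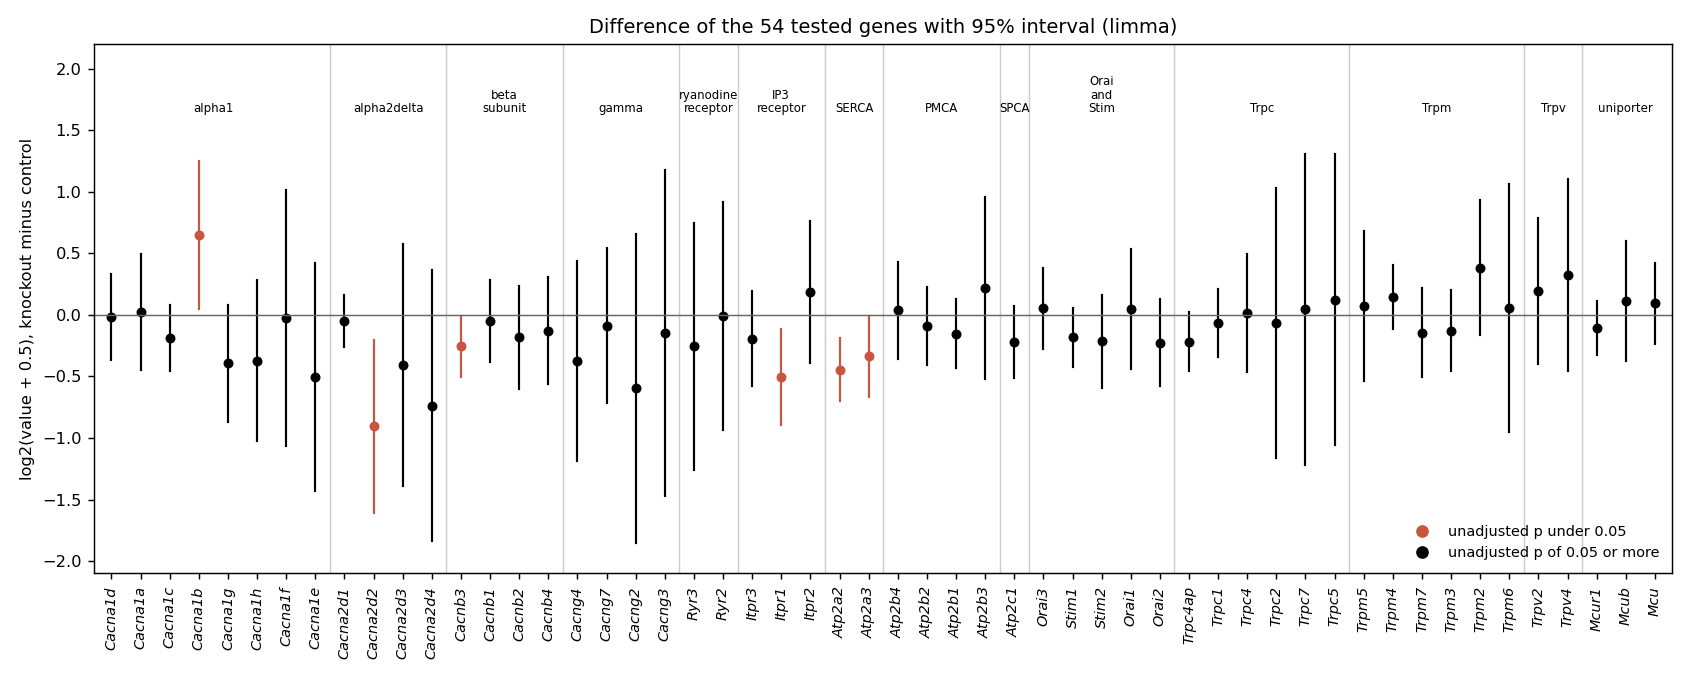
Log2 difference, libraries labelled knockout minus controls, of the 54 tested genes with 95% intervals (limma), grouped by role. The 6 red genes had an unadjusted p under 0.05 and lie on both sides of 0; the intervals of low genes such as Cacng3, Trpc7 and Trpc5 reach beyond 1.

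The smallest p among the 54 genes belonged to a pump of the endoplasmic reticulum. Atp2a2 (chr5:122453513-122502225, minus strand, GRCm38 with GENCODE M21) encodes the widely expressed SERCA pump. It was measured at 40991, 31471, 39704 and 37244 normalized reads in controls 1 to 4 and at 27924, 28811, 28370 and 24366 in libraries 1 to 4 labelled knockout. Every control lay above every library labelled knockout, by a margin smaller than the spread among the controls. The group means were 37352 ± 4218 and 27368 ± 2034 (SD, n = 4 each), a ratio of 0.733. On the log2 scale the difference was -0.44 (SE 0.12; limma, unadjusted p = 0.0027, adjusted p = 0.20). Without control 3 it was -0.41, and without control 2, the lowest control, it was -0.52. With the immediate early score of each library as a covariate the difference was -0.18. The part of the immediate early response in this difference was not tested.

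Atp2a3 (chr11:72961169-72993044, plus strand) encodes the SERCA pump that is prominent in beta cells and blood cells. Its values were 21024, 19401, 16264 and 19072 in controls 1 to 4 and 12083, 13184, 16422 and 19020 in those labelled knockout. Libraries 1 and 2 labelled knockout lay below all controls, while libraries 3 and 4 fell within the control range. The log2 difference was -0.34 (SE 0.15; limma adjusted p = 0.45). Both pumps together gave 8849 to 10722 normalized reads per kb in the controls and 6880 to 7775 in the libraries labelled knockout, with no overlap and a ratio of means of 0.758. The SERCA sum was the one sum among the 14 roles in which the groups did not overlap. The share of 6.35% holds for single genes, and none was computed for sums of genes, so the SERCA sum is not read as standing out. The sum is not a separate result from that of Atp2a2. Atp2a2 held 58.5% to 67.9% of this sum in controls and 52.7% to 66.7% in those labelled knockout. The ratio of Atp2a2 to Atp2a3 was 1.73 ± 0.293 in controls and 1.63 ± 0.408 in those labelled knockout (SD, n = 4), so the balance of the pair differed by less than its spread. In bulk islets, fewer cells of a type and less RNA per cell cannot be told apart.

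The release channels of the store were dominated by Itpr3. Itpr3 encodes an IP3 receptor and was measured at 862, 499, 803 and 814 in controls 1 to 4 and at 725, 720, 569 and 551 in those labelled knockout. Control 2 lay below all other libraries, and the groups overlapped (log2 difference -0.19, limma adjusted p = 0.74). Itpr1 (chr6:108213096-108551109, plus strand), the IP3 receptor best known from Purkinje neurons, had 420, 347, 449 and 444 in controls 1 to 4 and 365, 364, 237 and 226 in those labelled knockout. Libraries 3 and 4 labelled knockout were the lowest, and libraries 1 and 2 lay just above control 2. The difference was -0.51 (SE 0.18; limma unadjusted p = 0.0149, adjusted p = 0.33), and -0.01 with the immediate early covariate. Itpr2, the third receptor, averaged 92.8 ± 27.3 in controls and 107 ± 33.1 in those labelled knockout. Of the level per kb of the IP3 receptors, Itpr3 held 73.7% in controls and 75.3% in those labelled knockout, and Itpr1 held 20.7% and 17.0%. The ratio of Itpr3 to Itpr1 was 3.61 ± 0.517 in controls and 4.47 ± 0.516 in those labelled knockout, with overlap. This ratio depends on the length used: per kb of the longest transcript it was 1.95 ± 0.279 and 2.42 ± 0.279, and Itpr1 then held 31.7% and 27.3% of the IP3 receptor level.

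The ryanodine receptors, the calcium-activated release channels of muscle and brain, were scarcely detected. Ryr3 had 8.59, 16.5, 14.5 and 20.9 normalized reads in controls 1 to 4 and 14.9, 10.4, 5.88 and 22.3 in those labelled knockout. Ryr2, the cardiac receptor, averaged 15.7 ± 6.10 in controls and 15.7 ± 6.78 in those labelled knockout. Per kb of exon, Itpr3 exceeded Ryr2 by 73.5 to 305 times in single libraries. At this depth the log2 intervals of the ryanodine receptors spanned -1.26 to 0.74 for Ryr3 and -0.94 to 0.92 for Ryr2.

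Among the pores of voltage-gated channels, Cacna1d held the largest share of the RNA, and its groups overlapped fully. Cacna1d (chr14:30039939-30491455, minus strand) was measured at 2499, 2540, 3104 and 2979 in controls 1 to 4 and at 3501, 2547, 2031 and 3114 in those labelled knockout. Both the highest and the lowest value came from libraries labelled knockout. Its log2 difference was -0.01 with a 95% interval from -0.36 to 0.34. It made up 49.7% ± 1.09 of the alpha1 level per kb in controls and 49.8% ± 3.15 in those labelled knockout. Cacna1a, the P/Q-type pore, held 21.4% and 21.8%. Cacna1c, the other L-type pore, held 18.01% and 15.9% of it, and the ratio of Cacna1d to Cacna1c was 2.81 ± 0.401 in controls and 3.17 ± 0.447 in those labelled knockout.

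Cacna1b (chr2:24603887-24763152, minus strand), the N-type pore of presynaptic terminals, was the one gene of the 6 that was higher in the libraries labelled knockout. It had 190, 129, 221 and 307 normalized reads in controls 1 to 4 and 210, 370, 321 and 407 in those labelled knockout. Libraries 2 to 4 labelled knockout lay above all controls, and library 1 lay within the control range. The log2 difference was 0.65 (SE 0.27; limma unadjusted p = 0.0363, adjusted p = 0.43). Its share of the alpha1 level per kb was 4.74% ± 1.28 in controls and 7.68% ± 2.42 in those labelled knockout. Without control 2 the difference was 0.44, and with the immediate early covariate it was 1.25. Cacna1g, a T-type pore that opens near the resting potential, had 163, 168, 231 and 202 in controls 1 to 4 and 167, 209, 113 and 109 in those labelled knockout. Libraries 3 and 4 labelled knockout were the lowest, and the other 6 overlapped (log2 difference -0.39, SE 0.22, limma adjusted p = 0.56). The difference was -0.26 without library 4 labelled knockout and -0.003 with the immediate early covariate. The R-type pore Cacna1e averaged 43.9 ± 33.0 in controls, where control 4 reached 92.4, and 26.4 ± 6.62 in those labelled knockout. Cacna1h, a T-type pore, and Cacna1f, the L-type pore of the retina, averaged below 50 in both groups.

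**Figure D3:**
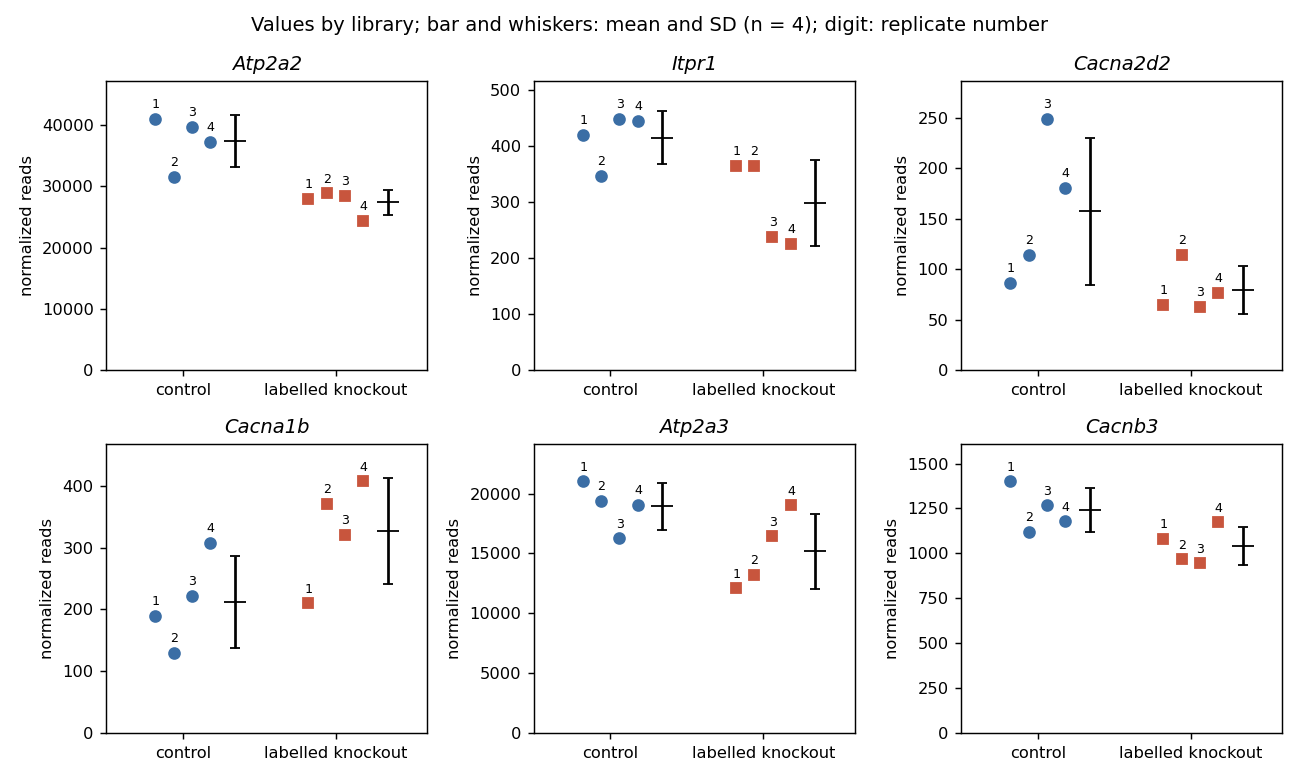
Normalized reads in each library for the 6 genes with an unadjusted p under 0.05, from 0 upwards, with replicate numbers and with mean and SD at the side (n = 4). Atp2a2 is the one gene in which all controls lie above all libraries labelled knockout, while the other 5 overlap.

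The alpha2delta and beta subunits of the voltage-gated channels carry the pore to the membrane and set its kinetics. The gamma genes were grouped with them as auxiliary subunits by name. All 12 genes of these 3 kinds had a log2 difference below 0, against 55.1% of all genes. With upper quartile scaling, which put Cacna2d1 and Cacnb1 at 0.01, 10 of 12 did, against 46.1% of all genes. With the acinar score of each library as covariate it was also 10, against 55.8%, and with the immediate early covariate 11, against 54.6%. Leaving out 1 library gave 10 to 12, against 53.0% to 57.7% of all genes. Cacng3 averaged 4.32 in controls and 3.46 in those labelled knockout, and Cacna2d4 11.6 and 6.56, so their signs rest on few reads. Cacna2d1, the alpha2delta subunit that binds gabapentin, had 2372, 2105, 2267 and 2119 in controls 1 to 4 and 2171, 1974, 2293 and 2128 in those labelled knockout. Its coefficient of variation over the 8 libraries, 5.80%, was the lowest of the 56 genes, and the groups overlapped. The interval of its log2 difference ran from -0.26 to 0.16. It held 88.8% of the alpha2delta level per kb in controls and 93.4% in those labelled knockout.

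Cacna2d2 (chr9:107399612-107529343, plus strand), an alpha2delta subunit of cerebellar neurons, had a much lower level and the largest log2 difference of the 54 genes. It was measured at 86.4, 114, 249.2 and 180 in controls 1 to 4 and at 65.0, 114, 62.7 and 76.6 in those labelled knockout. Controls 3 and 4 were high, controls 1 and 2 lay below library 2 labelled knockout, and the ratio of means was 0.506. The log2 difference was -0.90 (SE 0.32; limma unadjusted p = 0.0162, adjusted p = 0.34), and it was -0.64 without control 3.

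Cacnb3 (chr15:98630840-98644529, plus strand) encodes the main beta subunit here, with 75.8% of the beta subunit level per kb in controls and 74.0% in those labelled knockout. Its values were 1401, 1118, 1267 and 1178 in controls 1 to 4 and 1079, 966, 944 and 1173 in those labelled knockout. Library 4 labelled knockout lay above control 2, and the other 3 lay below all controls (log2 difference -0.25, SE 0.11, limma unadjusted p = 0.0453, adjusted p = 0.46). Cacnb2, another beta subunit, averaged 571 ± 94.6 and 513 ± 124. Cacng4, the most abundant of the gamma subunits, a family that also regulates AMPA receptors, had 182, 162, 161 and 62.2 in controls 1 to 4 and 131, 88.0, 63.6 and 142 in those labelled knockout. Control 4 was the lowest of all 8 libraries, so that the groups overlapped over the whole range of the libraries labelled knockout. Cacng7, another gamma subunit, averaged 38.4 ± 13.4 and 34.8 ± 4.85, which is the sum of 2 gene identifiers with equal values, so that its level may be counted double.

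For the pumps that move calcium out of the cell or into the Golgi apparatus, the groups overlapped. Atp2b4, the most abundant PMCA pump of the plasma membrane, had 1894, 2272, 1526 and 2679 in controls 1 to 4 and 2059, 2577, 1652 and 2224 in those labelled knockout. All 4 libraries labelled knockout lay within the control range, with a log2 difference of 0.04 (95% interval -0.36 to 0.43). Atp2b2 averaged 880 ± 181 and 814 ± 40.5, and Atp2b1 averaged 992 ± 135 and 891 ± 98.6. Atp2c1, which encodes the calcium and manganese pump of the Golgi apparatus, had 1545, 1117, 1263 and 1026 in controls 1 to 4 and 942, 1010, 1102 and 1160 in those labelled knockout. Control 1 was the highest and the groups overlapped (log2 difference -0.22, SE 0.14, limma adjusted p = 0.60), and without control 1 the difference was -0.11. Its exons share 1837 bp with Aste1 on the other strand.

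Of the store-operated entry genes, Orai3 and both Stim genes had the highest levels per kb. Orai3 had 570, 468, 440 and 491 in controls 1 to 4 and 389, 613, 570 and 490 in those labelled knockout. The groups overlapped over the whole control range (log2 difference 0.05, 95% interval -0.28 to 0.38). It held 39.3% of the Orai and Stim level per kb of annotated exon in controls and 42.9% in those labelled knockout. Per kb of the longest transcript Orai3 held 28.1% and 31.7%, and Stim1 led with 39.3% and 37.2%. Stim1, the sensor of calcium in the store, had 1623, 1292, 1424 and 1270 in controls 1 to 4 and 1200, 1337, 1222 and 1167 in those labelled knockout. Control 1 was the highest, library 2 labelled knockout lay among the controls, and the difference was -0.18 (SE 0.11, limma adjusted p = 0.59), or -0.11 without control 1. The ratio of Stim1 to Stim2, the more sensitive of the sensors, was 1.14 ± 0.205 per kb of annotated exon in controls and 1.16 ± 0.108 in those labelled knockout, but 2.61 ± 0.469 and 2.65 ± 0.247 per kb of the longest transcript, so that the order of the sensors rests on the length used. Orai1 averaged 111 ± 20.7 and 117 ± 32.3, and Orai2 averaged 317 ± 80.2 and 266 ± 21.6.

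Of the Trp families, Trpm5 and Trpm4, both sodium-conducting channels that calcium opens from inside the cell, were prominent. Trpm5 was measured at 2358, 2637, 3590 and 2685 in controls 1 to 4 and at 3005, 2487, 5098 and 1915 in those labelled knockout. The highest and the lowest library were both labelled knockout, and the interval of the log2 difference was -0.54 to 0.68. Trpm4 averaged 1067 ± 75.6 in controls and 1188 ± 162 in those labelled knockout. Trpc4ap, the adaptor, had 1163, 999, 998 and 907 in controls 1 to 4 and 914, 860, 784 and 933 in those labelled knockout. Control 4 was the one control within the range of the libraries labelled knockout (log2 difference -0.22, SE 0.11, limma adjusted p = 0.52). Trpc1, the most abundant Trpc channel itself, averaged 804 ± 142 and 762 ± 41.8. Trpv2, a channel studied in insulin-treated beta cells, had 60.6, 68.6, 43.0 and 29.2 in controls 1 to 4 and 53.8, 52.2, 53.8 and 60.1 in those labelled knockout, all of them within the control range. The exons of Trpc2 lie wholly within Xntrpc on the same strand (2874 bp), so that its level (23.6 ± 11.6 and 23.3 ± 13.1) depends on how shared reads were divided.

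For the mitochondrial genes the groups overlapped. Mcur1 had 855, 739, 746 and 707 in controls 1 to 4 and 705, 701, 698 and 720 in those labelled knockout. Apart from control 1, all libraries lay close together (log2 difference -0.10, 95% interval -0.32 to 0.11). Mcu, the pore of the uniporter, averaged 116 ± 10.3 and 123 ± 11.8, and Mcub, which lowers conduction of the uniporter, averaged 59.5 ± 17.4 and 62.7 ± 0.865.

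The libraries contributed unevenly. Control 1 was the highest library in 19 of the 54 genes (35.2%, against 23.9% of all genes). Library 3 labelled knockout was the lowest in 16 (29.6%, against 12.3% of all genes). Leaving out a library raises the number of genes without overlap among all genes too. Without control 2, 6 of the 54 genes were lower without overlap (11.1%, against 6.55% of all genes). Without control 4 there were 4 (7.41% against 7.65%), and without library 4 labelled knockout also 4 (7.41% against 5.02%). Without library 2 labelled knockout there were 3 (5.56% against 5.99%), and without control 1 or control 3 there were 2 (3.70% against 4.57% and 5.41%). Higher without overlap were 3 without control 3 (5.56% against 3.83%) and 1 without library 1, 2 or 3 labelled knockout (1.85% against 3.73% to 4.07%). No calcium gene passed the adjusted threshold when any single library was left out. The 6 genes in the plot of settings were picked by their p in the same data. All kept their sign under all 18 alternatives, but several of these cannot move the difference. The filters, the prior and the replicate block left it unchanged, and the pseudocounts nearly so. Itpr1 lay at -0.01 with the immediate early covariate.

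**Figure D4:**
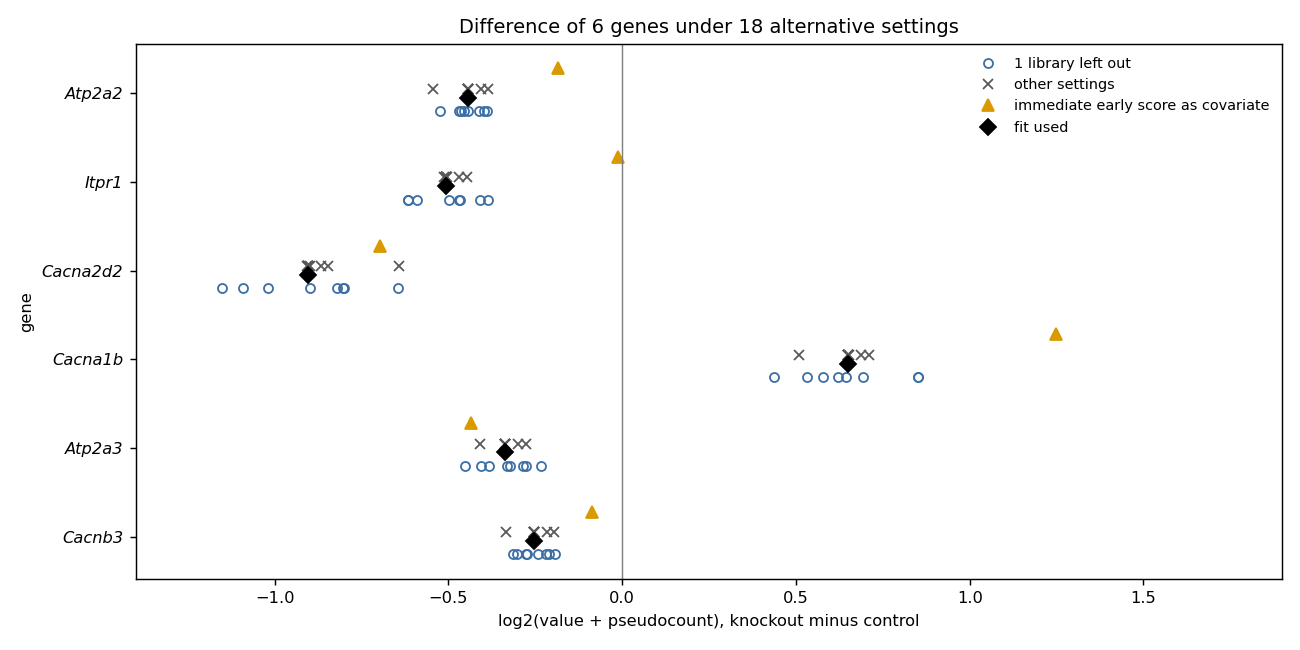
Log2 difference of the 6 genes with an unadjusted p under 0.05 under 18 alternative settings: leaving out each library (open circles), the immediate early covariate (triangles) and 9 other settings (crosses), with the fit used as a diamond. With the immediate early covariate Atp2a2 lies at -0.18, Itpr1 at -0.01 and Cacnb3 at -0.09, whereas Cacna1b lies at 1.25.

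Genes that work around the channels and pumps were taken from a list of 62 (uniporter gatekeepers, sodium-calcium exchangers, calmodulin, its kinases, calcineurin, NFAT factors, store regulators and exocytosis proteins), of which 58 were tested. By limma 0 of 58 passed, and 3 were higher and 3 lower at an unadjusted p under 0.05 (10.3%, against 10.7% of all genes). The median log2 difference was -0.08, against -0.03 over all genes. It was below 0 for 38 of 58, against 55.1% of all genes. The groups did not overlap for 9 of 58 (15.5%, against 6.35% of all genes), 4 of them higher and 5 lower in those labelled knockout. The list was chosen with earlier results of these data known, so these shares are not an independent test. The 4 with the smallest p are given first. Rcan1, a calcineurin inhibitor that calcineurin itself induces, had 707, 869, 832 and 684 in controls 1 to 4 and 595, 588, 525 and 556 in those labelled knockout. All controls lay above all libraries labelled knockout (log2 difference -0.44, SE 0.11, limma adjusted p = 0.18). Rcan2, its paralog, averaged 438 ± 77.9 in controls and 338 ± 18.7 in those labelled knockout, without overlap (limma adjusted p = 0.37). Nfatc2, a transcription factor that calcineurin activates, averaged 572 ± 19.2 and 463 ± 65.8, without overlap (limma adjusted p = 0.38). Saraf, an inhibitor of store-operated entry, had 29.9, 35.8, 28.9 and 33.4 in controls 1 to 4 and 68.6, 49.8, 48.7 and 62.1 in those labelled knockout. All libraries labelled knockout lay above all controls (log2 difference 0.82, SE 0.23, limma adjusted p = 0.20). Tpcn1 and the calcineurin subunit gene Ppp3cc were also higher in those labelled knockout, without overlap. Their log2 differences were 0.28 and 0.30 (limma unadjusted p = 0.0361 and 0.0370, adjusted p = 0.43 for both). Ppp3ca, another calcineurin subunit gene, was lower without overlap (-0.17, limma adjusted p = 0.63). With the immediate early covariate the log2 difference was -0.63 for Rcan1, -0.05 for Rcan2, -0.16 for Nfatc2 and 0.72 for Saraf.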

How the data were processed

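Bulk RNA of islets from 8 mice, 4 controls and 4 labelled knockout, was sequenced by the authors. By the study's methods, RNA was extracted with an RNeasy kit, libraries were stranded (KAPA), adapters were trimmed with cutadapt (1.13), reads were assigned with kallisto (0.46.1) to the GRCm38 transcriptome and genes were tested in sleuth. The Ensembl release and the strand setting are not given in the sources used here. Pseudoalignment divides reads shared by similar transcripts, so overlapping genes and paralogs can exchange reads.

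The deposited table holds, for each library, a normalized signal per gene: the authors' estimated reads divided by a size factor of the library, not by length. A deposited mean on the natural log scale was used to check the reading of the columns, and averaging the libraries gave it within 1e-06 for 15938 of 15985 symbols. Repeated lines were dropped and the distinct identifiers of a symbol were summed. The other columns hold the authors' own gene and isoform comparisons (effect sizes, p-values, q-values and variance terms) and were not used. The step between low values gave the value of 1 read (between 61.8% and 71.1% of low values within 0.05 reads of a whole number), and from it a depth between 11.0 and 26.3 M estimated reads, so values of about 10 or less rest on few reads.

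Genes above a value of 1 in 4 or more libraries were tested on log2(value + 0.5) with limma (3.58.1, R 4.3.3; variance prior with trend and robust, 1 term for group, two-sided, Benjamini-Hochberg adjustment over 15960 genes, threshold 0.05). Fold changes on this scale understate the change of low genes. The script was tested on simulated data. Single values were compared by an exact permutation test over the 70 assignments of 4 of 8 libraries. Levels per kb used the union of annotated exons (GENCODE M21). Alternatives were other pseudocounts, filters and scalings, no trend or robust prior, a replicate block, acinar or immediate early scores as covariates, and leaving out each library. Values by library are given for genes past the threshold or without overlap, the highest gene per role and the 10 with the smallest p. Upstream windows came from RefSeq. Annotated genes that match the naming rule but are not among the 56 (16 of 72) were not analysed here, and 1 gene of the 56 is not reported here by name. The genes, lists and tests were chosen with earlier results of these data known. The libraries are separate mice by their labels.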

Additional observations from a re-analysis of the deposited data

Results flagged for a closer look

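In 9 of 112 groups of 4 libraries (56 genes, 2 groups each), 1 library stood apart from the other 3. Its gap relative to the range was above Dixon's 95% limit, which normally distributed values pass in about 1 group of 20. Whether the normalized reads follow that distribution was not tested, and the share over all genes was not computed. The genes also share the same 8 libraries, so no excess is read from the 9 groups. In 4 of them control 3 was the high library, with 73.8 normalized reads of Cacna1h against 33.97 to 39.98 in the other controls, 143 of Cacnb4 against 91.6 to 98.5, 122 of Trpm2 against 67.3 to 73.5, and 44.7 of Trpm6 against 9.91 to 13.4. Control 3 is also the control with little Y-linked RNA, although the study's methods describe males. Alpha cell markers (5 genes) made up 2.85% of control 3, the most of the 8 libraries, and 1.01% of library 3 labelled knockout, the least. Beta cell markers made up 31.5% of control 3, the least of the controls. Whether any of this bears on these genes was not tested. Control 2 was low in Itpr3, with 499 against 803 to 862, and control 1 was high in Orai2, with 436 against 270 to 290. Among the libraries labelled knockout, library 3 was low in Cacnb2, with 328 against 554 to 590, and in Trpm7, with 157 against 208 to 219. Library 1 labelled knockout was low in Stim2, with 462 against 545 to 557.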

How the results depend on the processing

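By limma, 0 of the 54 calcium genes passed the adjusted threshold under any of the 18 alternatives. The adjusted p of Atp2a2 ran from 0.14 without control 2 to 1.0 with the immediate early covariate. That covariate changed the sign of 23 of the 54 genes, among them Stim1 at 0.00089. Its score separates the groups, so that it overlaps with the group term, and the cause was not tested. The acinar covariate changed 10 signs, median ratio scaling 3, upper quartile scaling 5 and leaving out 1 library 3 to 11. Cacna1d and Ryr2 turned positive under both scalings, Cacna2d1 and Cacnb1 under upper quartile scaling. Over all genes, 6 were higher and 3 lower. The number higher was 3 with the acinar covariate, 0 with the immediate early covariate, 1 without trended and robust prior, 11 with a pseudocount of 1 and 10 with values above 10. The number lower was 0 with either covariate, 1 with median ratio scaling, 0 with upper quartile scaling and 0 without trended and robust prior. Leaving out 1 library gave 1 to 47 higher and 0 to 11 lower, both highest without control 2. For the calcium genes it gave 0 to 3 genes without overlap higher and 1 to 6 lower, and a median log2 difference from -0.15 to -0.06. The immediate early covariate gave a median of -0.034, against -0.038 over all genes, with 57.4% against 54.6% below 0. The acinar covariate gave -0.09 against -0.04, with 59.3% against 55.8% below 0. Below 0 were 61.1% against 49.5% with median ratio scaling and 57.4% against 46.1% with upper quartile scaling. At an unadjusted p under 0.05, 5 calcium genes were lower and 1 higher. With the immediate early covariate 0 were lower and 2 higher, and 3 were lower with either rescaling or without trended and robust prior. The 1 higher was lost with the acinar covariate, without that prior, and without control 1 or 2 or library 2, 3 or 4 labelled knockout. Rescaling moved the median of all genes by 0.037 and 0.058 on the log2 scale.

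The replicate numbers did not pair the samples: same-numbered libraries correlated at -0.16 to 0.07 in their deviations from the group means, and 0 of 4 correlated best with their own number. With the replicate block 5 genes were higher and 1 lower over all genes, and 3 calcium genes were lower at an unadjusted p under 0.05. With the longest transcript as length, 8 of the 10 highest genes remained among the 10 highest and 46 of 56 genes changed place, by at most 7. With controls alone all 10 remained, and 20 genes changed place, by at most 5. Depth limits genes below about 10 normalized reads, such as Cacng3, Trpc7 and Cacna2d4.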
